A study of Mus musculus with 6 samples.

Results

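Messenger RNA of 10 genes of megalin-type endocytosis was followed in alveolar type 2 (AT2) cells, the surfactant-making cells of the lung alveolus, after conditional deletion of Abca3. The members were taken by symbol from the deposited count table of 23478 genes: the LDL receptor family genes Lrp1, Lrp2, Lrp4, Lrp8 and Vldlr, the receptor chaperone Lrpap1, the megalin partners Cubn and Dab2, and the sorting receptors Sort1 and Sorl1. All 10 were in the table and among the 14477 genes tested. The cells came from adult mice of mixed strain, Abca3 cKO (n = 3) or control (n = 3), and were purified by removing other cells. Both groups were taken 6 days post tamoxifen by the series' design, although the wording of the treatment label would also fit dosing over 6 days. The labels give neither the Cre driver, nor the alleles of the controls, nor whether each replicate was a separate animal, and p-values here speak of the spread among these libraries alone.

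Megalin, the product of Lrp2, is a very large receptor on the apical surface of absorptive epithelia such as the kidney proximal tubule, where it takes up filtered lipocalins, vitamin carriers and apolipoproteins. It works with cubilin, which has no membrane span of its own and depends on amnionless, and with DAB2, an adaptor that links receptor tails to clathrin. The LDL receptor family shares ligand-binding repeats and needs the chaperone RAP, the product of Lrpap1, which keeps ligands off new receptors in the endoplasmic reticulum. Sortilin and SORLA belong to the VPS10 receptor family and carry cargo between the Golgi and endosomes.

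The megalin gene was the only member whose change passed the test across all genes, and it was higher in Abca3 cKO. Because the start-site sequence is where a reader would look first at such a gene, the window around the RefSeq start of Lrp2 is shown. It runs from 250 bases before to 50 bases after that start. Beside it stand the windows of Lrp8, the member with the next smallest p, and Lrp1, the member nearest to Lrp2 in transcript length. Each is written in the direction of transcription on GRCm38.p6, and capitals mark the GC box GGGCGG or its reverse complement.
Lrp2, chr2:69585980-69586279, minus strand: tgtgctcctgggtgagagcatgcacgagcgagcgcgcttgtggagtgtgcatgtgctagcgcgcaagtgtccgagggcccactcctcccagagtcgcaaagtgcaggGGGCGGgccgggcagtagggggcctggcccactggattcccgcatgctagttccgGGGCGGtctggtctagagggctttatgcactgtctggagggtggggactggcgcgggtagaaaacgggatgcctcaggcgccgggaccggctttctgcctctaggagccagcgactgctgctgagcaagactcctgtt
Lrp1, chr10:127621099-127621398, minus strand: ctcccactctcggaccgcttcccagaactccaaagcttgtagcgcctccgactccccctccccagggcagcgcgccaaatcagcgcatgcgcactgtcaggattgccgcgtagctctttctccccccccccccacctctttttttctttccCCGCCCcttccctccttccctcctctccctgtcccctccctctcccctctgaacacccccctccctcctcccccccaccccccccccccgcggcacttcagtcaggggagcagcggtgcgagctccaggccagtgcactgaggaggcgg
Lrp8, chr4:107802635-107802934, plus strand: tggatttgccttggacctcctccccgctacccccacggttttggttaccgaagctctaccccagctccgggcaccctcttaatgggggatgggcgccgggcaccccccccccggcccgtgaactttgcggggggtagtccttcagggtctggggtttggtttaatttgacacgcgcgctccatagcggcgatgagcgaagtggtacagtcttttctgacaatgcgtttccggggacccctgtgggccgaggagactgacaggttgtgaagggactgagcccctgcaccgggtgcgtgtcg
The Lrp2 window had a GC content of 65.0% and held 2 GC boxes, whose first bases lay 143 and 88 bases before the start. The Lrp1 window (67.7% GC) held 1 and the first of the 3 Lrp8 windows (62.7% GC) held 0. That Lrp8 window lies inside the gene as annotated in GENCODE M21, which starts at 107802261. It therefore holds no sequence from before the GENCODE start. RefSeq windows were at hand for 8 of the 10 members, 13 in all, and 5 of the 13 held a GC box on either strand, against 35.7% of all 32851 windows. The Lrp2 window held no match on either strand to TATAAA (in 13.6% of all windows), CCAAT (37.4%), the AP-1 motif TGANTCA (7.81%), the C/EBP motif TTNNGNAA (40.7%) or the forkhead motif TGTTTNC (20.5%). These matches are a description of letters and not of binding.

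Libraries held 23531330 to 26071229 counts. Levels are CPM (the reads of a gene relative to its library's TMM-scaled total), group values are mean ± SD over the 3 libraries of a group, and every fold change sets Abca3 cKO against control. The test was edgeR's quasi-likelihood F test over all 14477 genes, and a gene was called at a Benjamini-Hochberg adjusted p under 0.05. Abca3 stood at 571, 611 and 606 CPM in the 3 Abca3 cKO libraries and at 635, 694 and 689 CPM in the controls (log2 fold change −0.17, adjusted p = 0.696 by edgeR). That count is for the gene as a whole, how its reads were counted was not given, and the labels name no deleted exon. It is therefore no check of the genotype labels. Exons of Abca3 also share 914 nucleotides with an annotated transcript on the other strand. AT2 markers were abundant. The summed level of 8 markers, Abca3 among them, was 71662.5 to 82795 CPM in Abca3 cKO and 63948.4 to 74933.9 CPM in controls. The club cell gene Scgb1a1 was abundant too, at 67103 ± 8267 CPM in controls. The other club markers had control means of 117 to 5111 CPM. Macrophage, endothelial and lymphocyte markers were low, at summed levels of at most 101 CPM, 94.97 CPM and 3.01 CPM, and the macrophage gene C1qa and the lymphocyte gene Nkg7 had no count in any library. Control replicate 2 alone had high Xist (2345 CPM, against at most 9.36 CPM in the other 5 libraries). In bulk RNA, fewer cells of a type and less RNA per cell cannot be told apart.

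With edgeR, 0.38% of the genes tested were called, 0.262% higher and 0.117% lower in Abca3 cKO. Of the 10 members 1 was called higher, Lrp2, and 0 lower. At an unadjusted p under 0.05, 4 members were higher (Lrp2, Lrp1, Dab2 and Cubn) and 2 lower (Lrp8 and Sorl1), against 5.07% and 4.16% of all genes (9.23% in either direction). DESeq2 also called 1 member, Lrp2, against 1.5% of the 15585 genes to which it gave an adjusted p. The median log2 fold change of the members was 0.13, beside 0.00177 over all genes tested, and 8 of 10 were positive, against 50.3% of all genes. Of the positive ones, Vldlr, Lrpap1 and Sort1 stood at 0.04 to 0.06, and each changed sign in at least 1 fit without 1 library. In 5 of the 10 the lowest CPM of one group lay above the highest of the other, which held for 14.1% of all genes tested. Cubn is counted in these numbers although it passed the count filter only through the Abca3 cKO libraries.

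**Figure D1:**
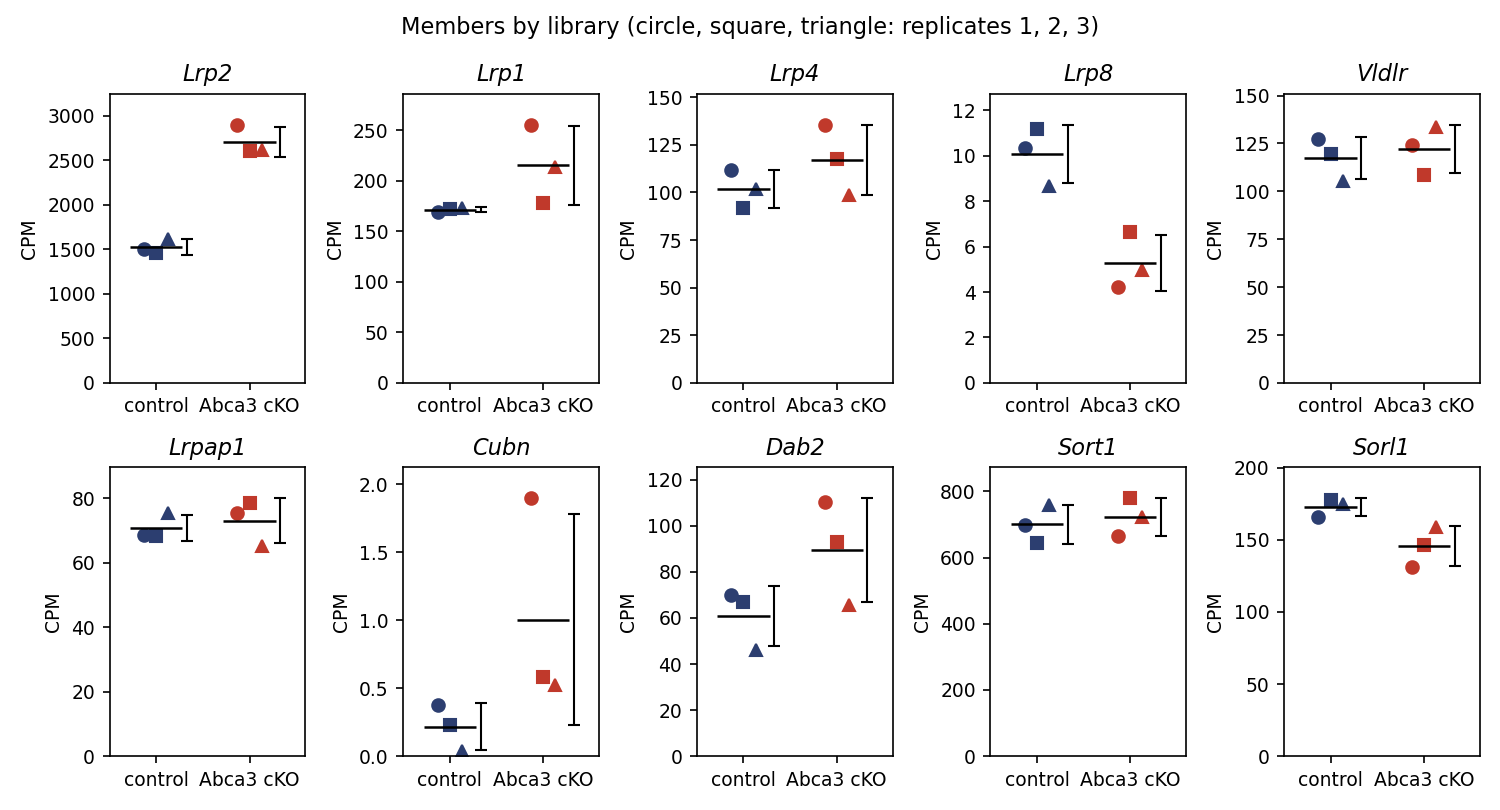
CPM of each member in each library, with controls in blue and Abca3 cKO in red. Bars are group means, the lines beside them span 1 SD either way, and each panel has its own axis from 0. The 3 Abca3 cKO libraries stand at 2597 to 2895 CPM for Lrp2, above all controls.

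Lrp2 (chromosome 2, 69424340 to 69586065, minus strand, GRCm38) is a gene of 161.7 kb whose longest coding transcript in GENCODE M21 has 79 exons and 15460 nucleotides. It stood at 2895, 2597 and 2613 CPM in Abca3 cKO replicates 1 to 3 and at 1502, 1453 and 1619.8 CPM in control replicates 1 to 3. The groups lay far apart, and within each group the highest library was only 1.11 times the lowest. The mean was 2702 ± 167 CPM against 1525 ± 85.7 CPM, or 0.82 as a log2 fold change (SE 0.116), which is 1.77-fold with a 95% interval of 1.49 to 2.104, and adjusted p = 0.00453 by edgeR. Lrp2 ranked 15 by p among all genes tested. These values rest on 35552 to 68597 reads per library, so counting error is small beside the spread between libraries. The authors' RPKM, which scales by transcript length, gave 84.3, 71.5 and 76.9 in Abca3 cKO and 42.2, 41.9 and 46.4 in controls, again without overlap. The call was lost without control replicate 1 (log2 fold change 0.81, adjusted p = 0.0570) and held in the other 5 fits that left out 1 library. Among those was the fit without control replicate 2, the library with high Xist (0.79, adjusted p = 0.0247 by edgeR). The call of Lrp2 was also lost on RPKM with no filter on low values (0.82, adjusted p = 0.139).

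The other large receptor, Lrp1 (chromosome 10, 127538161 to 127621148, minus strand), which clears protease complexes, alpha-2-macroglobulin and apolipoprotein E, was not called. It stood at 255, 178 and 214 CPM in Abca3 cKO and at 169, 172 and 173 CPM in controls. The controls lay within 1.03 times of each other, whereas the Abca3 cKO libraries spread over 1.44 times, and replicate 2 of that group lay just above the controls. The log2 fold change was 0.33 (SE 0.129, adjusted p = 0.414 by edgeR), and it was 0.19 without Abca3 cKO replicate 1 (adjusted p = 0.776). On the RPKM scale the groups overlapped, at 8.28 to 12.9 in Abca3 cKO and 8.42 to 9.28 in controls.

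Among the smaller family members, Lrp8 encodes ApoER2, a receptor of reelin and of selenoprotein P (chromosome 4, 107802261 to 107876840, plus strand). Its counts were low, 100, 171 and 123 in Abca3 cKO and 245, 290 and 219 in controls. The corresponding levels were 4.22, 6.66 and 4.97 CPM against 10.4, 11.2 and 8.69 CPM, so every Abca3 cKO library lay below every control. The log2 fold change of −0.93 (SE 0.253, 95% interval −1.47 to −0.39) did not pass (adjusted p = 0.168 by edgeR), and DESeq2 gave an adjusted p of 0.0563. The authors' RPKM for Lrp8 was 0.0787 to 0.148 in Abca3 cKO and 0.181 to 0.386 in controls, also without overlap. That RPKM was only 0.124 to 0.228 times the CPM per kb of the longest coding transcript, the lowest such range of the members other than Cubn.

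Vldlr, the receptor of apolipoprotein E-rich particles and reelin (chromosome 19, 27216484 to 27254231, plus strand), stood at 124, 109 and 133 CPM in Abca3 cKO and 127, 119.6 and 105 CPM in controls. The groups overlapped over most of their range, with a log2 fold change of 0.06 and a 95% interval of −0.20 to 0.31. Lrp4, a receptor of agrin and a modulator of Wnt signalling (chromosome 2, 91457511 to 91513779, plus strand), stood at 135, 118 and 98.5 CPM against 112, 91.7 and 102 CPM. Its groups overlapped as well, and the log2 fold change was 0.20 with an interval of −0.08 to 0.48 (adjusted p = 0.708 by edgeR).

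Lrpap1, the chaperone of this receptor family (chromosome 5, 35091501 to 35105766, minus strand), was not called (adjusted p = 0.956 by edgeR). It stood at 75.4, 78.5 and 65.2 CPM in Abca3 cKO and 68.5, 68.3 and 75.5 CPM in controls. The fold was 1.03 with a 95% interval of 0.864 to 1.23, an interval that lies below the interval of 1.49 to 2.104 for Lrp2. The difference between these 2 genes was not itself tested.

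Cubn, which encodes cubilin (chromosome 2, 13276338 to 13491813, minus strand), was close to absent. It had 45, 15 and 13 counts in Abca3 cKO and 9, 6 and 1 counts in controls, which is 1.90, 0.584 and 0.525 CPM against 0.380, 0.232 and 0.0397 CPM. The groups did not overlap, but replicate 1 held most of the Abca3 cKO reads, and the filter cutoff of about 0.402 CPM was reached by 3 Abca3 cKO libraries and 0 controls. The fitted log2 fold change was 2.19 (SE 0.922, adjusted p = 0.464 by edgeR) and 1.34 without Abca3 cKO replicate 1 (adjusted p = 0.863). At such counts it depended on the libraries used, running from 1.34 to 2.83 over the 6 fits without 1 library. Amn, the gene of amnionless, which carries cubilin to the membrane, had 0 counts in all 6 libraries, which allows a level of up to 0.116 to 0.127 CPM per library (3 counts, counting error only).

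Dab2, the adaptor (chromosome 15, 6299788 to 6440712, plus strand), stood at 110.1, 92.9 and 65.6 CPM in Abca3 cKO and at 69.9, 66.9 and 45.9 CPM in controls. Replicate 3 was the lowest of each group, and the lowest Abca3 cKO library lay below the control replicates 1 and 2. The log2 fold change was 0.56 (SE 0.203, 95% interval 0.11 to 1.004, adjusted p = 0.396 by edgeR), and 0.38 without Abca3 cKO replicate 1 (adjusted p = 0.683).

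Neither sorting receptor was called. Sort1, or sortilin, which carries progranulin and prosaposin towards lysosomes (chromosome 3, 108284082 to 108361511, plus strand), stood at 664, 779 and 723 CPM in Abca3 cKO and 699.5, 642 and 758 CPM in controls. These ranges overlapped almost fully, and the fold was 1.03 with a 95% interval of 0.867 to 1.23. Sorl1, or SORLA, known for its part in the traffic of the amyloid precursor protein (chromosome 9, 41964720 to 42124297, minus strand), stood at 131, 147 and 159 CPM against 166, 178 and 175 CPM. All 3 Abca3 cKO libraries lay below the controls, by less than the adjusted test could call (log2 fold change −0.25, SE 0.110, adjusted p = 0.507 by edgeR). On the RPKM scale the Sorl1 groups overlapped, at 10.9 to 13.1 and 13.1 to 15.02. Exons of Sort1, Sorl1 and Cubn overlap an annotated transcript on the other strand and those of Dab2 a pseudogene, and the amplification kit does not mark strand, so reads of the overlap cannot be assigned. Lrp1, Lrp2, Lrp4, Lrp8, Vldlr and Lrpap1 share no exon sequence with another annotated gene.

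**Figure D2:**
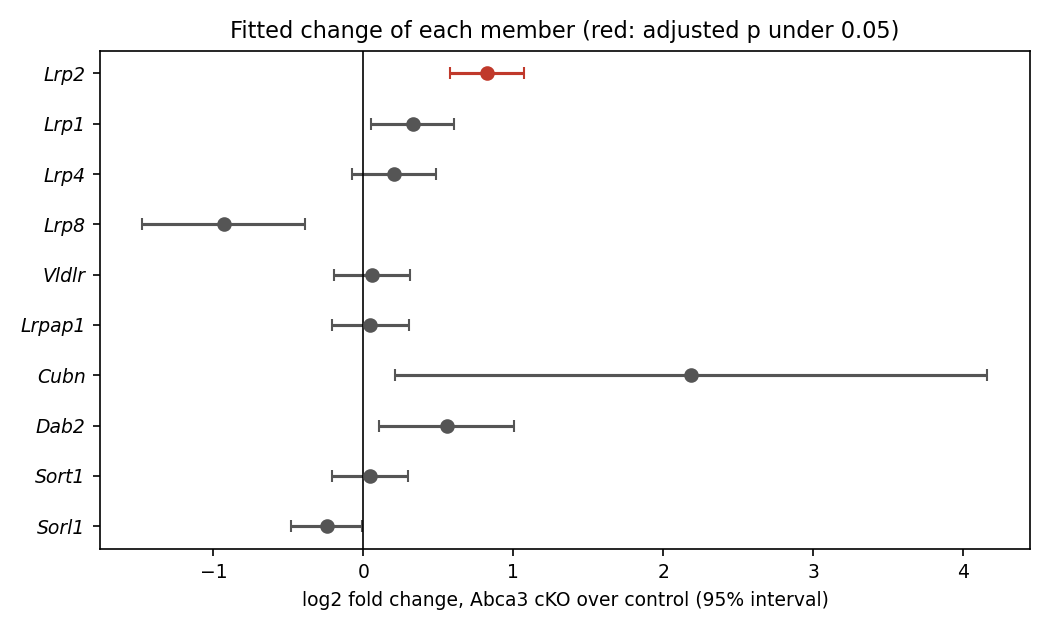
Fitted log2 fold change of each member, Abca3 cKO over control, with its 95% interval from edgeR's quasi-likelihood fit. Lrp2, in red, is the only member with an adjusted p under 0.05, and the interval of Cubn, from 0.21 to 4.16, is the widest.

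Levels were compared between genes per length, as CPM divided by the kb of the longest coding transcript. In controls Sort1 (102.4 ± 8.49 CPM per kb) and Lrp2 (98.6 ± 5.54) were the most abundant members, and their libraries overlapped, at 93.98 to 111 and 93.99 to 104.8 CPM per kb. Next came Lrpap1 at 23.7 ± 1.37 CPM per kb, above a group of 5 genes at 11.5 to 16.1 CPM per kb. In that group, in falling order, stood Sorl1 (16.1 ± 0.573), Vldlr (14.7 ± 1.40), Dab2 (13.1 ± 2.80), Lrp4 (12.8 ± 1.26) and Lrp1 (11.5 ± 0.150), and neighbours in this order lay within the spread of their libraries. Lrp8 stood at 1.52 ± 0.192 CPM per kb and Cubn at 0.0193 ± 0.0152. In Abca3 cKO the order at the top was different, with Lrp2 at 175 ± 10.8 CPM per kb above Sort1 at 105.6 ± 8.41, and all 3 Lrp2 values (168 to 187.2) above all 3 Sort1 values (97.07 to 113.9). The authors' RPKM put the same pair first in each group, Sort1 at 45.0 ± 3.21 and Lrp2 at 43.5 ± 2.52 RPKM in controls, but ordered the genes below them differently. In control RPKM, Sorl1 (14.1 ± 0.991) stood above Lrpap1 (12.7 ± 1.003), and Lrp1 (8.42 to 9.28) stood above Vldlr (4.01 to 4.97) without overlap, so the order of the middle genes depends on the unit.

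**Figure D3:**
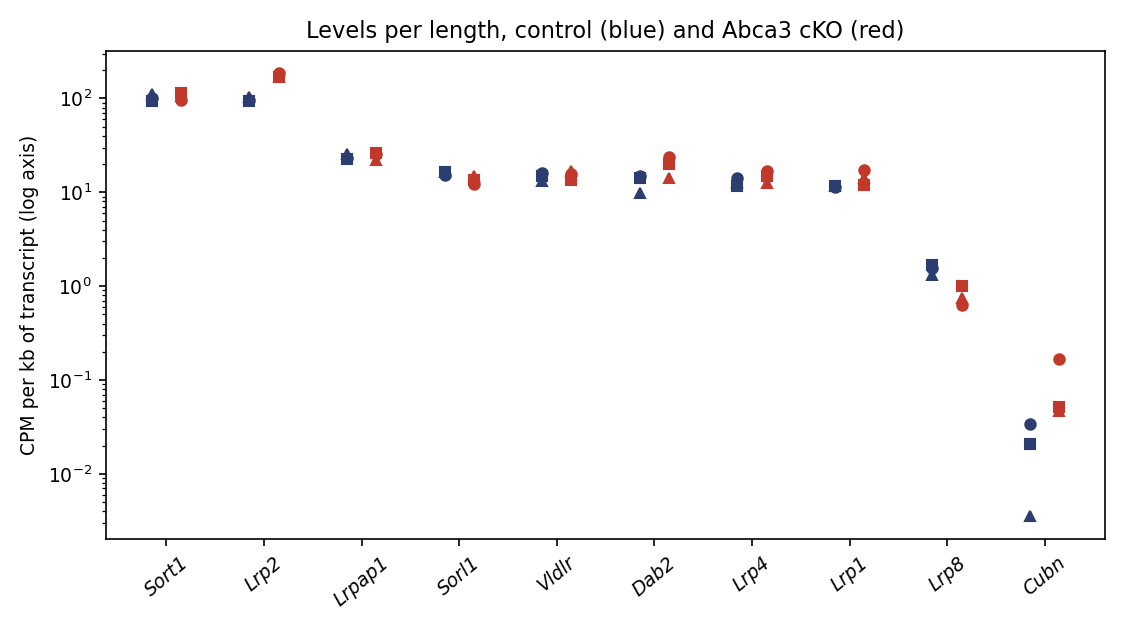
CPM per kb of the longest coding transcript for each member on a log axis, 1 point per library, controls in blue and Abca3 cKO in red, ordered by the control mean. Sort1 and Lrp2 lie near 100 CPM per kb in controls and only Lrp2 separates upward from its controls at that level.

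Summed levels of markers of some other cells differed between the groups as well. The summed level of 7 fibroblast markers was 1012.4 to 1537.9 CPM in Abca3 cKO and 727 to 994 CPM in controls, with all 7 log2 fold changes positive, 5 of them at an unadjusted p under 0.05 and 0 called by edgeR. The sum of 4 mesothelial markers overlapped between groups, at 296 to 587 CPM against 262 to 319.5 CPM. That of 4 smooth muscle markers did not overlap, at 133 to 166 CPM against 115 to 131 CPM. The highest library in each of these 3 sums was Abca3 cKO replicate 1, which was also the highest for Lrp1, Lrp2, Lrp4, Dab2 and Cubn. Fibroblasts are known to express Lrp1. The part of these cells in the levels of the members was not tested. Without Abca3 cKO replicate 1, the log2 fold change was 0.77 for Lrp2, 0.19 for Lrp1 and 0.38 for Dab2, and the fibroblast sums of the remaining Abca3 cKO libraries, at 1012.4 and 1035.2 CPM, were still above every control. The macrophage sum was lower in Abca3 cKO without overlap, at 67.9 to 77.5 CPM against 89.2 to 101 CPM, with all 4 tested markers negative (median −0.42), 0 called by edgeR and 0 at an unadjusted p under 0.05. The 8 markers of alveolar type 1 cells all had negative log2 fold changes (median −0.34, 0 called and 3 with an unadjusted p under 0.05), and those of club and ciliated cells had sums that overlapped between groups. The AT2 list, which includes the deleted gene Abca3, had 6 of 8 positive, with a median of 0.38. The negative ones were Sftpc (−0.36) and Abca3 (−0.17). Of these Sftpc had an unadjusted p under 0.05, as had 5 of the positive ones. The groups did not overlap for 7 of the 8 markers, Abca3 among them. The 1 call in the AT2 list was Napsa, a protease that processes surfactant protein B, higher in Abca3 cKO. The highest log2 fold change was 0.66 in the AT2 list and 0.80 in the fibroblast list, whose median was 0.45. It was 0.98 in the club list and 0.84 in the endothelial list. The log2 fold change of Lrp2 was 0.82.

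**Figure D4:**
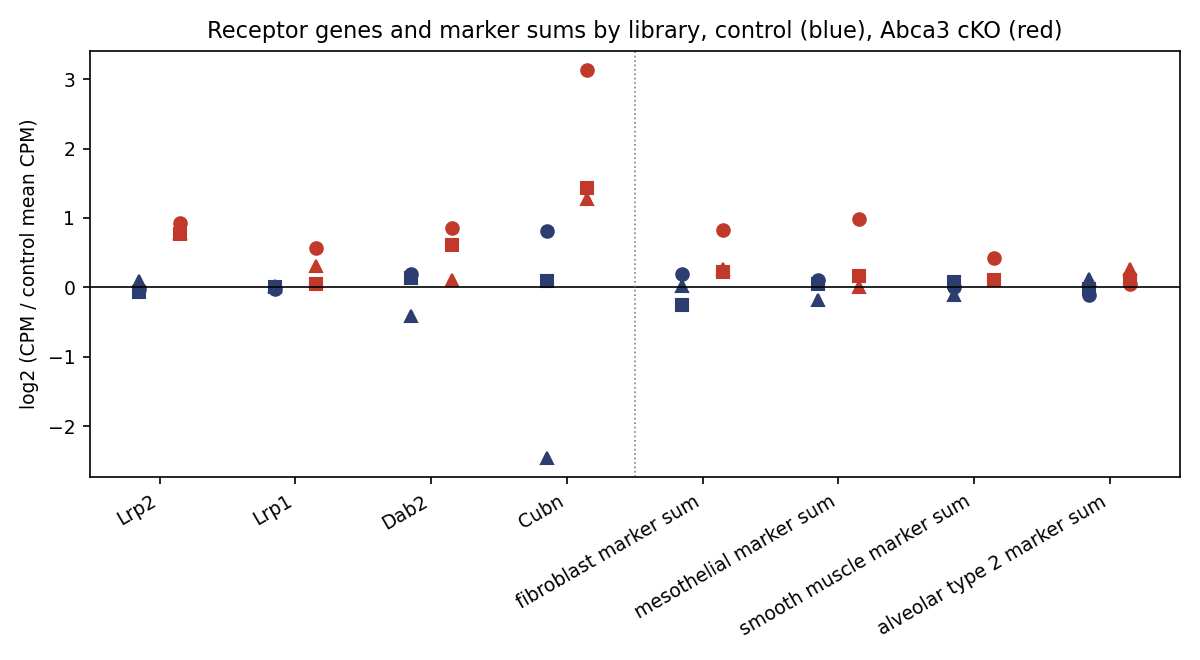
Level in each library relative to the control mean, as log2, for 4 members and for the summed CPM of 4 marker lists, with controls in blue, Abca3 cKO in red, and circles, squares and triangles for replicates 1, 2 and 3. Abca3 cKO replicate 1 is the highest point for Cubn, Dab2 and the fibroblast and mesothelial sums, and also for Lrp2 and Lrp1.

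The other genes of the pathway were then read from 6 lists of 123 symbols, of which 119 were in the table and 107 were tested. In all, 2 were called higher, Lcn2 and Bmp1, and 1 lower, Thbs1, against 0.262% and 0.117% of all genes, and the median log2 fold change was 0.00754. All of these calls were known from earlier work on these data when the lists were drawn up.

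Among 31 tested ligands, Lcn2, the iron-carrier lipocalin that megalin binds, rose. It stood at 991, 959 and 1005 CPM in Abca3 cKO and 379, 355 and 423 CPM in controls (edgeR adjusted p = 7.51e-05, log2 fold change 1.35, SE 0.115). Thbs1, the matrix protein thrombospondin 1, which LRP1 takes up, fell from 120.5, 183 and 129 CPM in controls to 49.5, 58.4 and 67.5 CPM, and shares exon sequence with a noncoding gene on the other strand. Neither pair of groups overlapped. Gc, the vitamin D-binding protein that megalin takes up in the kidney, was next by p, at 4.56 to 5.80 CPM in Abca3 cKO against 0.930 to 2.01 CPM in controls (log2 fold change 1.74, adjusted p = 0.0664 by edgeR). DESeq2 called Gc higher, as it did Lrp5 and Serpine2, which brought the called pathway genes to 6. The ligand list as a whole had 14 of 31 log2 fold changes above 0 and a median of −0.07.

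Of 8 other tested genes of the LDL receptor family none was called by edgeR, 2 had an unadjusted p under 0.05, both higher, and DESeq2 called 1. These were the Wnt co-receptors Lrp5 and Lrp6. Lrp5 stood at 77.8, 88.8 and 82.0 CPM in Abca3 cKO and 65.3, 47.3 and 55.7 CPM in controls, without overlap (log2 fold change 0.56, adjusted p = 0.115 by edgeR). Lrp6 stood at 247, 259.8 and 250.02 CPM against 201, 213 and 164 CPM, also without overlap (0.39, adjusted p = 0.246). The median of this list was 0.21.

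In the list of chaperone, shedding and turnover genes 1 of 14 was called. Bmp1, the procollagen protease, rose from 46.1, 59.1 and 40.4 CPM to 79.9, 129.5 and 114 CPM (log2 fold change 1.15, SE 0.187, adjusted p = 0.0267 by edgeR), a call that held in 2 of the 6 fits without 1 library. Furin, the convertase that cuts the LRP1 precursor, differed by 0.25 on the log2 scale (adjusted p = 0.576) and overlaps an antisense transcript. Mylip, the ubiquitin ligase that sends lipoprotein receptors to lysosomes, differed by −0.46 (adjusted p = 0.604).

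The machinery of uptake and sorting held no call by edgeR. Of 22 tested genes of the clathrin coat and its adaptors 1 had an unadjusted p under 0.05, and the median log2 fold change was 0.01. That gene was Itsn1, the scaffold intersectin, at 28.5 to 42.1 CPM against 23.4 to 25.6 CPM (0.46, adjusted p = 0.375). The coat-associated Eps15 lay lower without overlap, at 75.5 to 78.7 CPM against 88.9 to 90.8 CPM (−0.23, adjusted p = 0.542), and Epn2, an epsin, at −0.22 (adjusted p = 0.672). Of 16 genes of early endosomes and recycling 1 had an unadjusted p under 0.05, Appl1, an effector of RAB5, at 47.9 to 50.04 CPM against 58.6 to 63.5 CPM (−0.32, adjusted p = 0.394). In the same list the log2 fold change was 0.48 for the recycling GTPase gene Rab4a (adjusted p = 0.622) and −0.50 for the kinase gene Sgk1 (adjusted p = 0.625). Of 16 tested genes of other sorting receptors, GGA proteins and retromer 1 had an unadjusted p under 0.05, the VPS10 receptor gene Sorcs2, at 75.1 to 77.9 CPM against 38.5 to 60.4 CPM (0.55, adjusted p = 0.204). Igf2r, the receptor of mannose 6-phosphate (−0.17, adjusted p = 0.699), and the sorting nexin Snx1 (0.20, adjusted p = 0.713) followed by p. DESeq2 called 0 genes in these 3 lists.

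**Figure D5:**
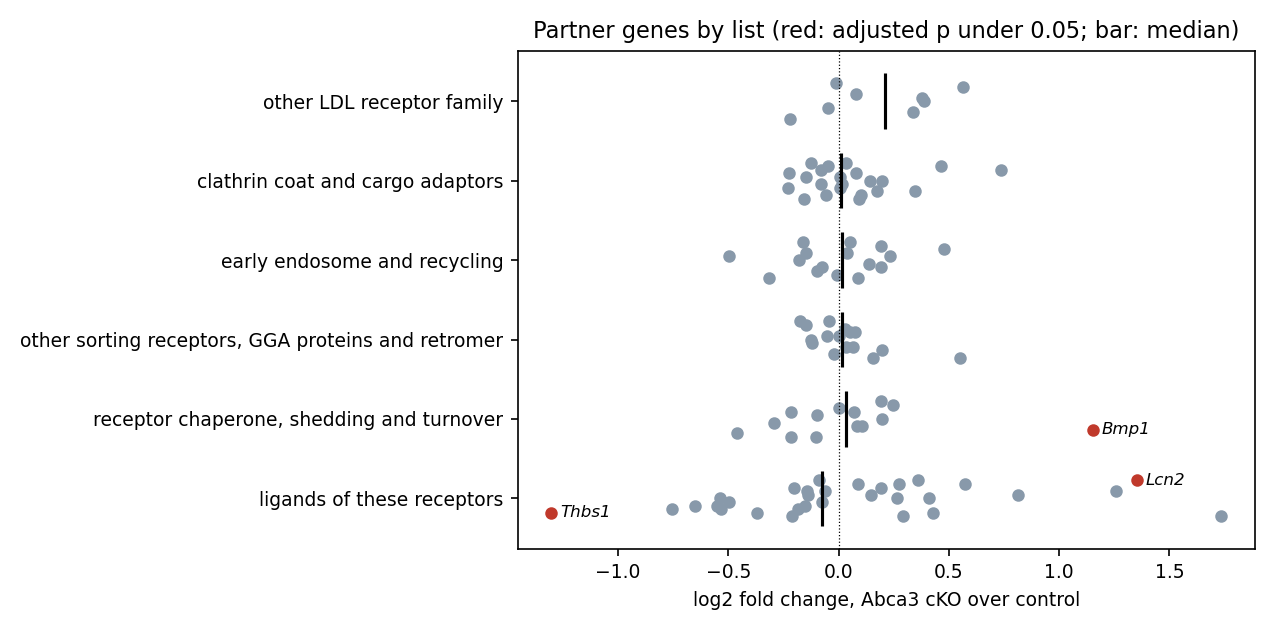
Fitted log2 fold change of the tested genes in each of 6 pathway lists, 1 point per gene, with the list's median as a black bar and genes with an adjusted p under 0.05 in red. Lcn2 at 1.35, Bmp1 at 1.15 and Thbs1 at −1.30 are the called genes, and the medians lie between −0.07 and 0.21.

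The genes whose profile over the 6 libraries lay nearest to that of Lrp2 were sought among the 9747 genes whose mean reached 5 CPM, by the root mean square difference of log2 CPM centred on each gene's mean. The nearest was Fgf7, a growth factor for epithelium, at a difference of 0.0621, with 28.5 to 33.6 CPM in Abca3 cKO and 17.5 to 19.9 CPM in controls. It was followed by Adra1a, an alpha-adrenergic receptor (0.0690), and Isyna1, which makes inositol phosphate (0.0933). Ggt5, a gamma-glutamyl transferase (0.0996), and the sterol carrier Scp2 (0.101) completed the first 5. All 5 were picked for their likeness to Lrp2 in the same 6 libraries, so higher levels in Abca3 cKO follow from that choice. Their calls are therefore no separate support for the change of Lrp2 and no evidence of shared regulation. By edgeR, Adra1a, Isyna1, Ggt5 and Scp2 were called higher (log2 fold changes of 0.91, 0.96, 0.91 and 0.66), and Fgf7 was not (0.76, adjusted p = 0.0536). The calls of Adra1a and Ggt5 held in 0 of the 6 fits without 1 library, that of Scp2 in 3 and that of Isyna1 in 5.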

How the data were processed

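The authors deposited whole-number read counts per gene and RPKM values, reads scaled by transcript length and depth, for 6 libraries. Per the labels' protocols, RNA was amplified with the NuGEN Ovation system and made into Nextera XT libraries, so counts are of amplified reads and not of molecules. Per the submitters' processing notes, TopHat2 2.0.8, Bowtie2 2.1.0, DESeq and Cufflinks 2.0.2 were used with mm10 (GRCm38). The role of each tool, the read counter and its annotation were not given in the sources used here.

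The counts were fitted with edgeR 4.0.16 under R 4.3.3: filterByExpr, TMM, glmQLFit with robust estimation and glmQLFTest, two-sided, with group as the only term and Benjamini-Hochberg adjustment over all 14477 genes tested. SEs come from the fold change and the square root of its F, with 95% intervals. Alternatives used DESeq2 1.42.0 and, on log2(RPKM + pseudocount of 1 or 0.1), limma 3.58.1. The method was tested on simulated counts. Replicates of a group were not copies of one library (chi-square per degree of freedom 30.5 to 52.1). Gene models came from GENCODE M21 and start-site windows from RefSeq, both on GRCm38. A second sheet of 29 gene symbols holds no values and was not used.

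Named genes were Abca3, the members, each list's called genes and its 3 genes with the smallest p, and the 5 genes nearest to Lrp2. Marker lists were given by their sums with up to 3 genes by level, of which the text gives Scgb1a1 and Sftpc. Amn, Xist, C1qa, Nkg7 and Napsa stand outside that rule and were chosen after their values were seen, as was Serpine2. One pathway gene that the rule names is not reported here. The members and lists were chosen with earlier results of these data known.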

Additional observations from a re-analysis of the deposited data

How the results depend on the processing

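The 10 members were refitted under 15 alternatives, which gave 145 values. Of these 138 kept the direction and the side of the threshold, 2 lost the call of Lrp2 and 5 changed sign. The log2 fold change of Lrp2 ran from 0.77 to 0.87, with adjusted p from 4.17e-11 to 0.139. The sign changes, each in a fit without 1 library, were in 3 members that were not called: Vldlr (−0.013 without replicate 3 of Abca3 cKO, −0.019 without that of the controls, highest 0.13), Lrpap1 (−0.0092 without Abca3 cKO replicate 2, highest 0.12) and Sort1 (−0.014 without replicate 2 of either group, highest 0.10). The count of members called was 1, and 0 on RPKM without a filter; it ran from 0 to 1 without 1 library, being 0 without control replicate 1. The count of pathway genes called was 3, and 6 with DESeq2, 6 with no count filter, 1 on RPKM with either pseudocount, 0 on RPKM without a filter, and 2 to 4 without 1 library. Over all genes 55 were called, and 233 with DESeq2, 132 with no count filter, 15 and 13 on RPKM with pseudocounts of 1 and 0.1, 2 on RPKM without a filter, and 21 to 50 without 1 library. With the replicate number as a block 33 genes were called, 30 of them among the 55, and Lrp2 stayed called (adjusted p = 0.0268). Deviations from the group mean correlated across genes at 0.0762, −0.0304 and −0.0272 between same-numbered libraries. Between libraries of different number the correlations ran from −0.0816 to 0.105. With 3 libraries per group these correlations constrain each other, so they cannot settle whether the numbers pair the samples. The cause of these changes was not tested. Depth limits Cubn and Lrp8, and the other members had at least 1158 reads in every library.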
